A study of Homo sapiens with 4 samples.

Results

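The S100 genes encode small calcium-binding proteins, and 10 of them were followed in T47D cells: S100P, S100A4, S100A6, S100A8, S100A9, S100A10, S100A11, S100A13, S100A14 and S100A16. They were selected by symbol from the 23287 gene symbols of the RNA-seq data, and all 10 were found. T47D cells come from a human breast tumour and carry the progesterone receptor (PR), a steroid receptor that acts as a ligand-activated transcription factor. The cells were kept in hormone-stripped serum before treatment, for a shorter time for RNA-seq than for ChIP-seq. RNA-seq was available for 1 library of cells treated with R5020, a synthetic progestin, at 10 nM for 3 h and for 1 library of cells given the vehicle (EtOH) for 3 h. PR ChIP-seq was available for 1 library of cells treated with 10 nM R5020 for 1 h, and the input DNA was not analysed here. Each condition was therefore represented by a single library of a single cell line. No spread between replicates could be measured, no test was possible, and every difference below compares these libraries only.

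S100 proteins form dimers and carry EF-hands, helix-loop-helix motifs that hold calcium. Calcium binding opens a surface through which most of them contact partner proteins such as annexins, cytoskeletal proteins and p53, and S100A10 is the exception that holds this open form without calcium. Several of them also leave the cell and act on receptors such as RAGE (AGER) and TLR4. In humans most S100 genes lie in a cluster on the long arm of chromosome 1, within and beside the epidermal differentiation complex, whereas S100P lies on the short arm of chromosome 4.

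The S100P transcript was the one that stood apart after progestin treatment. S100P, which contacts ezrin inside the cell and acts on RAGE outside it, measured 0.484 FPKM in EtOH and 3.37 FPKM in R5020. FPKM is a fragment count scaled by transcript length and by the size of the library, and the level of a gene is the sum over its transcripts. On the log2(FPKM + 1) scale S100P was higher in R5020 by 1.56, which lay at the 98.6th percentile of the changes of the 11018 genes that reached 1 FPKM in at least 1 library (retained genes). Of the 8 members that were retained it was the only member past 1.5-fold upward, against 7.67% of all retained genes. No member passed 1.5-fold downward, against 4.14% of all retained genes. With only 8 retained members, these counts do not set the family apart from all retained genes. Without the pseudocount of 1 the S100P log2 change was 2.80, because the pseudocount shrinks the change of a gene with so low a vehicle level. The study sequenced pairs of reads, so depth given in reads here is not a count of fragments. The deposited coverage of S100P corresponded to 25 reads of 50 nt in EtOH and 158 in R5020. The interval deposited with its FPKM ran from 0.120 to 0.958 in EtOH and from 3.35 to 5.42 in R5020, so the intervals of the 2 libraries did not overlap and the R5020 value lay close to the lower end of its own. The intervals of the 2 libraries also did not overlap for 38.9% of the 6276 retained genes with 1 transcript. S100P was also the member that needed R5020 to be retained, since its level in EtOH was under 1 FPKM. With a minimum of 5 FPKM in at least 1 library in place of 1, it dropped out and no member passed 1.5-fold.

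S100P was also occupied by PR at its start. The gene covers chr4:6695566-6698897 on hg19, is transcribed from the plus strand and is represented by 1 transcript. A PR binding site at chr4:6695388-6695887 spanned its deposited transcription start with a score of 65.05, a value derived from the p-value of the peak caller that ranked 8051 among the 11181 sites. A second site, at chr4:6697538-6698023, lay in the intron 1972 bp from the start, with a score of 95.37 and rank 2064. The first score was under the median of all sites, 74.5, and the second was above it. The part of the first site that lies before the deposited start (chr4:6695388-6695565, plus strand) and the 300 bases around the centre of the intronic site (chr4:6697631-6697930, plus strand) are shown because they are the PR-bound DNA of the single member that passed the threshold. Capitals mark matches, on either strand, to any of 4 short sequences: the hormone response element core ACANNNTGT, its half-site TGTTCT, the forkhead sequence TGTTTAC and the GATA sequence AGATAA.

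S100P start site: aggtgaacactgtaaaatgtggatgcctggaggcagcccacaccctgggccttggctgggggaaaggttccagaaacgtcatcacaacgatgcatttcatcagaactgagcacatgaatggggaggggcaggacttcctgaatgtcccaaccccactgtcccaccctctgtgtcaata
S100P intron site: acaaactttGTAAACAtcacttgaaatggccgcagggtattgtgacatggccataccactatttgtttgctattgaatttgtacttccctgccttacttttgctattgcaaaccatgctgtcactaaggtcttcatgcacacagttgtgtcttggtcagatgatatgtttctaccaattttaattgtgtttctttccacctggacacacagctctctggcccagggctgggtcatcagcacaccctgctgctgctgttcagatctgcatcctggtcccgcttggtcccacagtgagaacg

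The stretch at the start held none of the 4 sequences, and the intronic stretch held 1 forkhead match. A forkhead match was present in the central 300 bases of 2.58% of the 11178 sites that could be read from the reference, and in 4.07% of the whole sites. The hormone response element core was found in neither S100P site, and 11.6% of all sites held it. A match describes the letters of the window only, and its absence says nothing on how PR was held there.

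The genes closest to S100P in the level-by-library plane, by Euclidean distance over log2(FPKM + 1) in the 2 RNA libraries, were PDE5A, NCALD and SEC14L2. PDE5A, a phosphodiesterase that breaks down cyclic GMP, measured 0.605 FPKM in EtOH and 3.30 FPKM in R5020. NCALD, a neuronal calcium sensor that carries EF-hands as well, measured 0.646 and 3.38 FPKM. SEC14L2, a lipid-binding protein, measured 0.459 and 3.88 FPKM. Their distances from S100P were 0.116, 0.150 and 0.160, and with only 2 libraries the likeness amounts to a low vehicle level and a similar level in R5020.

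S100A6, S100A10 and S100A11 made up most of the S100 transcript level in both libraries. Their summed FPKM was 1108 of 1200 FPKM over the 10 members in EtOH (92.4%) and 1011 of 1095 FPKM in R5020 (92.3%). S100A6 (calcyclin), a cytoplasmic protein that contacts annexins and the ubiquitin ligase adaptor CACYBP, was the highest member, with 581 FPKM in EtOH and 456 FPKM in R5020. It ranked 16 of 23287 genes in EtOH and 26 in R5020, and its log2 change of -0.35 did not reach 1.5-fold. The FPKM of S100A6 lay above its own deposited interval, 278 to 293 in EtOH and 216 to 232 in R5020. In R5020 that interval lay below those of S100A10 (270 to 283) and S100A11 (239 to 256). The top place, the ranks and the summed share of S100A6 therefore hold for the FPKM values only. S100A11, which pairs with annexin A1, measured 279 FPKM in EtOH and 258 FPKM in R5020, a log2 change of -0.11. S100A10, the subunit that joins annexin A2 at the plasma membrane, measured 248 FPKM in EtOH and 297 FPKM in R5020, a log2 change of 0.26 at the 81.0th percentile of all retained genes. S100A10 was the only other member with a higher value in R5020, still within 1.5-fold. As a result S100A11 stood above S100A10 in EtOH and S100A10 above S100A11 in R5020.

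**Figure D1:**
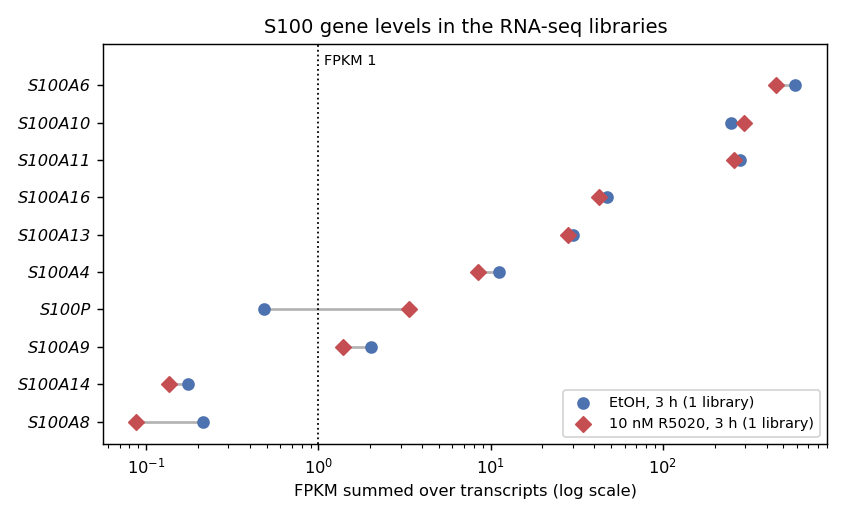
Levels of the 10 S100 genes as FPKM summed over transcripts, on a log axis, with 1 circle for the EtOH library, 1 diamond for the R5020 library and a line joining them. S100P crosses 1 FPKM, from 0.484 to 3.37, and the members run from S100A6 at the top, at 581 and 456 FPKM, to S100A8 at the bottom, at 0.213 and 0.0877 FPKM. The next longest line is that of S100A8, which rests on coverage equal to 10 and 4 reads.

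The middle of the range was held by S100A16, S100A13 and S100A4. S100A16, a widely expressed member, measured 47.3 FPKM in EtOH and 42.5 FPKM in R5020, a log2 change of -0.15. The FPKM of S100A16 lay above its own deposited interval, 27.9 to 32.0 in EtOH and 25.0 to 29.0 in R5020. S100A13, which takes part in the export of FGF1 and interleukin 1 alpha without a signal peptide, measured 30.2 and 28.1 FPKM, a log2 change of -0.10. All of its level came from 1 of 5 transcripts, and the other 4 were listed at 0 in both libraries. The intervals of that transcript, 24.6 to 30.0 in EtOH and 23.4 to 29.2 in R5020, overlapped those of S100A16. The place of S100A16 above S100A13 therefore holds for the FPKM values only. S100A13 overlaps the S100A1 locus, and whether the counting used strand is not given in the sources used here. S100A4 (metastasin), known for its contact with non-muscle myosin and its link to metastasis, measured 11.2 and 8.39 FPKM. Its log2 change was -0.37, and 1 of its 2 transcripts carried the whole level. None of these values reached 1.5-fold in either direction.

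The members known from myeloid cells and squamous epithelium were low. S100A9, which forms calprotectin with S100A8, measured 2.01 FPKM in EtOH and 1.39 FPKM in R5020, a log2 change of -0.33 that rested on coverage equal to 114 and 70 reads. S100A8 measured 0.213 FPKM in EtOH and 0.0877 FPKM in R5020, equal to 10 and 4 reads. S100A14, a member of epithelial tissues, measured 0.175 and 0.135 FPKM, equal to 18 and 14 reads. S100A8 and S100A14 were the 2 members under 1 FPKM in both libraries, and no change could be read from them at this depth. In both libraries S100A9 thus exceeded its calprotectin partner S100A8, by level per length. Of 8 myeloid markers none was retained, the highest value was 0.638 FPKM for LYZ in R5020, TYROBP was at 0 in both libraries, and the list summed to 1.13 FPKM in EtOH and 1.30 FPKM in R5020. Of 8 squamous keratinocyte markers 2 were retained and 4 were at 0 in both libraries, and that list summed to 6.37 FPKM in EtOH and 5.61 FPKM in R5020. In a bulk library a few cells with much of a transcript and many cells with little of it cannot be told apart.

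Among the 8 retained members the order by FPKM was S100A6, S100A11, S100A10, S100A16, S100A13, S100A4, S100A9 and S100P in EtOH. In R5020 it changed in 2 places, where S100A10 passed S100A11 and S100P passed S100A9. The intervals deposited for the neighbours S100A9 and S100P did not overlap in either library. Those intervals describe the estimate within 1 library. For the 6 retained members with 1 transcript, the intervals of the 2 libraries did not overlap in 4 cases, above in R5020 for S100P and S100A10 and below for S100A6 and S100A11, against 38.9% of the 6276 retained genes with 1 transcript. The FPKM lay above its own interval for 4 of the 15 member transcripts in each library. For S100A6 the interval in R5020 was 216 to 232 while the FPKM was 456, so the width of these intervals cannot serve as an error of the difference.

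Of the 8 retained members, 6 had a lower and 2 a higher value in R5020, and their median log2 change was -0.13. Over all retained genes the median was 0.0053 and 49.1% had a lower value in R5020. S100 transcripts are short, and all 8 retained members fell in the shortest of 10 equal classes of transcript length. In that class the median log2 change of all retained genes was -0.12, whereas in the longest class it was 0.07. After the median of the length class was subtracted, the median of the members was -0.015, S100A11 was at 0.0041 and S100A13 at 0.015, while S100P was at 1.68 and S100A10 at 0.38. S100A4, S100A6 and S100A9 were at -0.26, -0.23 and -0.22 after the subtraction. The part of length in the small negative values was not tested further.

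**Figure D2:**
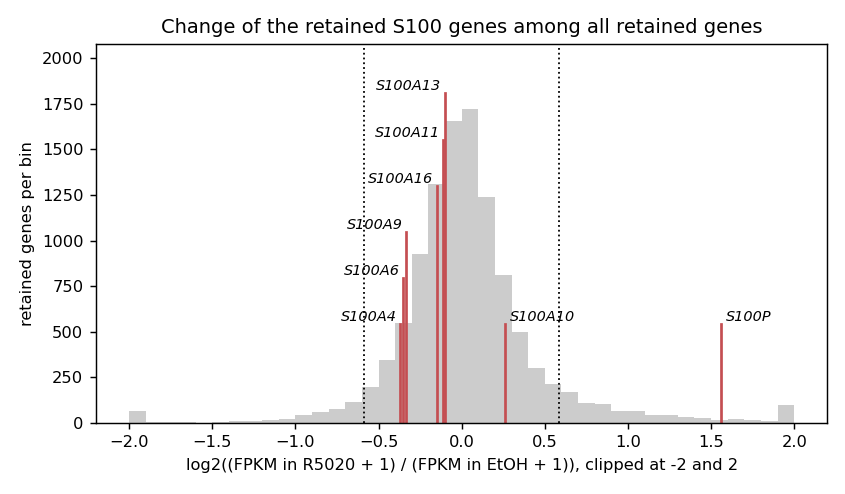
Number of retained genes per bin of log2 change between R5020 and EtOH (grey bars, values beyond -2 and 2 placed in the outer bins), with a red line at the value of each of the 8 retained S100 genes and dotted lines at 1.5-fold. The heights of the red lines only separate the names. S100P, at 1.56, is the only S100 gene beyond a dotted line, and the others lie between -0.37 and 0.26.

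**Figure D3:**
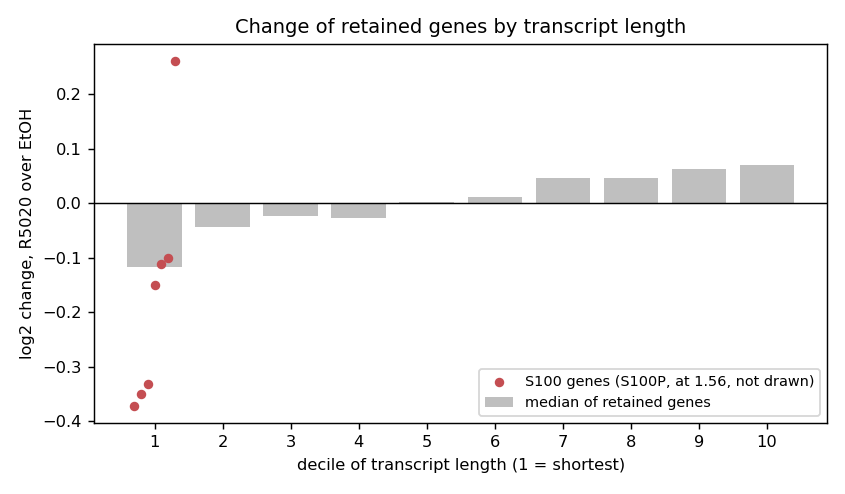
Median log2 change of retained genes in 10 classes of transcript length from the shortest (1) to the longest (10), as grey bars, with red points for 7 of the 8 retained S100 genes, all in class 1 and spread sideways for legibility. S100P, at 1.56, is outside the drawn range. The class medians run from -0.12 to 0.07, and the S100 points lie around the bar of class 1, with S100A10 at 0.26 above it.

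PR binding sites were then placed on the members, with a site assigned to a gene when its nearest edge lay in the gene or within 50 kb of it. This held for 8 of the 10 members, all but S100A8 and S100A9. The share among all retained genes was 52.7%, among all gene symbols 45.7%, and among retained genes no longer than the longest member (15293 bp) 57.3%. The 8 members shared 11 sites, 7 of which were counted for more than 1 member because the genes lie close together. A site lay inside 3 members, S100P, S100A10 and S100A13, compared with 22.5% of retained genes. In the same 3 members a site spanned a transcription start, which was so for 3.77% of the 9659 retained genes with a known strand. For S100A13 the spanned start was that of a transcript listed at 0 in both libraries. The S100A13 transcript that was measured starts 6.048 kb from that site. The site over the start of S100A10 had a higher score than the one over the start of S100P.

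The PR site with the highest score near any member lay over the start of S100A10. The gene covers chr1:151955386-151966714 and is transcribed from the minus strand. The site at chr1:151966106-151966893 spanned its deposited start with a score of 405.74, which ranked 78 among 11181 sites. An intronic site at chr1:151964758-151965613, 1101 bp from the start, had a score of 151.97 and rank 436. A weaker intronic site at chr1:151962459-151962843 had a score of 67.49, and a further site, at chr1:151945501-151946003 between genes, lay 9.383 kb past the end of S100A10 with a score of 79.27. The best site of S100A10 therefore scored far above both sites of S100P, while the log2 change in transcript level was 0.26 for S100A10 and 1.56 for S100P. The start of S100A10 in the annotation of the reference lies inside the same site. The part of the top-scoring site before the deposited start (chr1:151966715-151966893, minus strand) is shown because this site had the highest score near any member.

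S100A10 start site: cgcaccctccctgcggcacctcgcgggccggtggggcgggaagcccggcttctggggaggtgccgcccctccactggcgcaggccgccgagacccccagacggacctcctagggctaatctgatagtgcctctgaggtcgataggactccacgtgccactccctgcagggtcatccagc

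The stretch before the S100A10 start held none of the 4 sequences. The site past the end of the gene and the intronic site with the score of 151.97 each held 1 half-site match, the latter in an exon of the annotation. The half-site was present in 4 of the 11 sites near members and in 25.2% of all sites. The hormone response element core was in none of the 11, against 11.6% of all sites. Of 15 promoter windows of the members in the RefSeq table of GRCh38.p14, which run from 250 bases before each start to 50 after it, 1 held the core, that of S100A9, and 5.37% of 35116 promoter windows did so.

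S100A4 and S100A6 shared 2 sites that lie upstream of both. The first, at chr1:153520805-153521283 with a score of 66.13, lay 2.523 kb upstream of S100A4 and 12.088 kb upstream of S100A6, in an intron of S100A3 and of a longer annotated S100A4 transcript. The second, at chr1:153525641-153526152 with a score of 50.46, lay 7.359 and 16.924 kb upstream and was close to the lowest score deposited, 50. Both held a half-site match, and the second held a GATA match directly beside it. A stretch of 300 bases of each site, outside annotated exons (chr1:153520967-153521266 and chr1:153525747-153526046, minus strand) are shown because they are the only sites near members with a half-site upstream of a gene.

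S100A4 and S100A6 first upstream site: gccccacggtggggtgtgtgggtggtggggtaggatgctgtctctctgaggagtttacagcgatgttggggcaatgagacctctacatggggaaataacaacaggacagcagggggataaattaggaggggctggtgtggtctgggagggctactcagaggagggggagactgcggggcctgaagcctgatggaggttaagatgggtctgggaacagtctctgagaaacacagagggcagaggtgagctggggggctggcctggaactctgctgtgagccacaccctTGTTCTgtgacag
S100A4 and S100A6 second upstream site: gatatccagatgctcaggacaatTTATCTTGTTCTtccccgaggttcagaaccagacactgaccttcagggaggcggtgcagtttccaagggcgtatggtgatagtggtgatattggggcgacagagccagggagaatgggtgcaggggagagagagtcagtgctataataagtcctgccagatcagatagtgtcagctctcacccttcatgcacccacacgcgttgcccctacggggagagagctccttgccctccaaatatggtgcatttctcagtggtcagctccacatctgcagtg

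Near the remaining genes the sites were few. S100A11 had 1 site of its own, at chr1:152020496-152020933, which lay 10.985 kb upstream with a score of 51.7 and held a GATA match, and 3 of the S100A10 sites fell 38.089 to 42.139 kb past its end. S100A13, S100A14 and S100A16 shared 2 sites. The stronger, at chr1:153606165-153606772 with a score of 142.09 and rank 516, spanned the start of an S100A13 transcript that was listed at 0 in both libraries and also the start of CHTOP, a chromatin-associated RNA-binding protein gene on the other strand. From the start of the S100A13 transcript that was measured, the nearest edge of this site was 6.048 kb away. The weaker, at chr1:153570639-153571082 with a score of 66.41, lay between genes, 8.285 kb past the end of S100A16. For S100A8 and S100A9 the nearest site was the first one upstream of S100A4, at 157.141 and 187.302 kb.

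**Figure D4:**
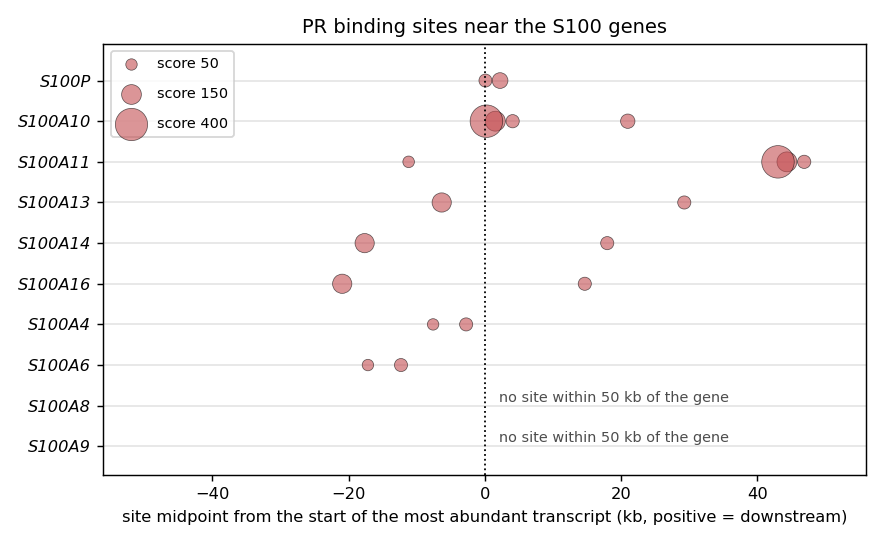
PR binding sites within 50 kb of the S100 genes, placed by the distance of their midpoint from the start of the most abundant transcript in kb (positive values downstream), with the area of each circle proportional to the score. The S100A10 start carries the largest circle, with a score of 405.74, the S100P circles are small and lie at the start and 2.21 kb into the gene, and S100A8 and S100A9 have none.

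The other genes of the S100 pathway were taken from lists of related genes. Of 11 further S100 genes none was retained, 8 were at 0 in both libraries, and the highest value was 0.196 FPKM, for S100A2 in R5020. Of 22 binding partners of S100 proteins 20 were retained, 2 were higher by 1.5-fold and none was lower, with a median log2 change of 0.05. Among all retained genes 7.67% were higher and 4.14% lower, so these counts were close to the share of all genes. Those 2 were EZR and AHNAK. EZR encodes ezrin, which links actin to the plasma membrane and is the partner of S100P, and it measured 33.5 FPKM in EtOH and 56.6 FPKM in R5020, a log2 change of 0.74. AHNAK, a giant scaffold protein that contacts the complex of S100A10 and annexin A2, measured 48.9 and 77.6 FPKM, a log2 change of 0.66. No PR site lay within 50 kb of EZR, whose nearest was 92060 bp away, whereas AHNAK had 5, the best with a score of 475.6 and rank 57. ANXA2, the annexin that S100A10 joins, measured 115 and 132 FPKM, a log2 change of 0.20 within 1.5-fold. The most abundant partners were the cytoskeletal genes ACTB, with 1742 and 1801 FPKM, and TUBB, with 120 and 131 FPKM.

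Of 11 receptors of secreted S100 proteins and downstream effectors 8 were retained, none passed 1.5-fold in either direction and the median log2 change was -0.05. Against the shares of all retained genes, 7.67% higher and 4.14% lower, 0 of 8 is too few genes to set the list apart. TLR4, a receptor of calprotectin, was listed at 0 in both libraries with at least 1 transcript carrying the status of low data, and AGER, which encodes RAGE, measured 0.687 FPKM in EtOH and 0.334 FPKM in R5020, under the minimum. The highest of the list were BSG (basigin), with 29.1 and 25.6 FPKM, DIAPH1, an actin nucleator that docks on RAGE, with 17.7 and 23.7 FPKM, and RELA, a subunit of the transcription factor NF-kappa-B, with 16.5 and 14.5 FPKM.

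Other EF-hand proteins and neighbouring genes were compared in the same way. Of 22 EF-hand genes 21 were in the data and 20 were retained. CAPNS1, the small calpain subunit, was listed at 101 FPKM in EtOH and at 0 in R5020, where its estimate carried the status of a failed fit, so it was left out. None of the other 19 passed 1.5-fold and their median was 0.05. Among the highest were EFHD1, with 107 and 138 FPKM, and CALM2, which encodes calmodulin, with 86.1 and 115 FPKM. Of 24 genes beside the S100 genes on chromosome 1, 8 were retained, none passed 1.5-fold, and the median was -0.18. The shares of all retained genes were again 7.67% higher and 4.14% lower, and neither list is set apart by its count. Among these neighbours ILF2 was highest, with 24.7 and 27.9 FPKM, followed by SNAPIN, with 12.01 and 15.33 FPKM, and CHTOP, with 13.9 and 12.2 FPKM. The medians of these retained neighbours and of the retained S100 genes, S100P on chromosome 4 included, were both negative. That of the S100 genes was -0.015 after the median of the length class was subtracted. This subtraction was not made for the neighbours, and a shared cause was not tested.

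**Figure D5:**
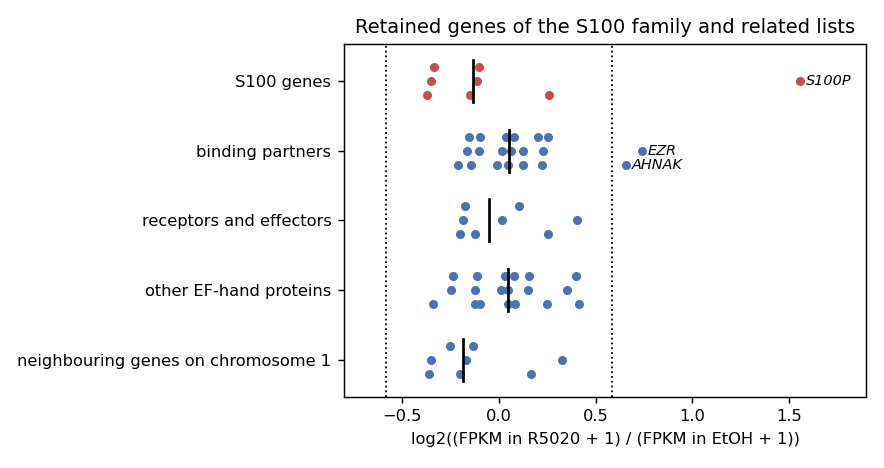
Log2 change between R5020 and EtOH for the retained S100 genes (red) and for retained genes of 4 related lists (blue), 1 point per gene, with a black bar at the median of each list and dotted lines at 1.5-fold. Only S100P, EZR and AHNAK lie beyond a dotted line.

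Luminal breast markers were present. All 10 luminal markers were retained, with KRT19 at 608 FPKM in EtOH and 477 FPKM in R5020, and KRT8 and KRT18 were listed at 0 in EtOH after a failed fit. Of the 8 that could be compared 5 were lower in R5020 by 1.5-fold (ESR1, PGR, GATA3, FOXA1 and TFF1), against 4.14% of all retained genes, a shift whose part in the S100 values was not tested. Of 8 basal or myoepithelial and 8 fibroblast markers, 2 each were retained, and the basal list summed to 4.36 and 3.46 FPKM and the fibroblast list to 7.95 and 5.13 FPKM. The deposited coverage corresponded to 35151493 reads in EtOH and 36203604 reads in R5020, which is not the number of reads placed. The study gives larger totals of unique reads, with that of EtOH above that of R5020. The coverage therefore does not rank the libraries by depth.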

How the data were processed

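RNA-seq and PR ChIP-seq data of T47D cells were analysed as deposited. The authors used TopHat to place the RNA reads on hg19, kept those with a single position and deposited FPKM per transcript from Cufflinks, with an interval, a status and the coverage. The coverage deposited by the authors is a signal per base and served only to express depth, as coverage times transcript length over 50 nt. The authors aligned ChIP reads with Bowtie 1.1.2, called sites with MACS against input DNA, and deposited a score for each site. The count of reads behind a site is not given in the sources used here.

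FPKM was summed over the 41138 transcripts into 23287 symbols, and changes were differences of log2(FPKM + 1), R5020 minus EtOH. Genes with 1 FPKM or more in at least 1 library were retained, as in the methods of the study, and its threshold of 1.5-fold was applied to the log2(FPKM + 1) difference, without its p-value. With 1 library per condition no test was made, and counts are read against the share of all retained genes. Genes of the lists that stood at 0 in 1 library were not compared, but the shares of all retained genes include such genes. Sites were placed with the extents of the deposited transcripts and annotated with GENCODE release v44lift37 on GRCh37, the assembly of hg19. Strand was matched for 19436 symbols. Motifs were searched on both strands in 11178 sites, and 3 sites on other contigs were left out. The conditions of the libraries come from the labels, and dose and times from the methods of the study.

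The members, lists, motifs and alternatives were chosen with earlier results of these data known. The text names all members with their sites, the 3 genes nearest to S100P, and from each list the genes past 1.5-fold and up to 3 with the highest mean FPKM, of which 1 gene is not reported here. Markers, AGER, TLR4, CAPNS1 and the printed site stretches were singled out after their values were seen. Python 3.11.15, pandas 2.3.3 and numpy 2.4.6 were used, and the calls and distances were tested on simulated data. The simulated levels in EtOH were all set above that of S100P, so calls at so low a level were not tested. Alternatives for pseudocount, scaling, TPM, transcript choice, length, threshold, filter, distance and score were tried.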

Additional observations from a re-analysis of the deposited data

How the results depend on the processing

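With 1 library per condition no replicate could be left out, and no spread limits the differences. No paired analysis was possible because no result comes from a test and each condition has 1 library. The count of members past 1.5-fold upward was 1 and became 0 with a minimum of 5 FPKM, because S100P did not reach it. The median log2 change of the retained members was -0.13 and became -0.015 after subtraction of the length class median. The members with a PR site numbered 8, and 5 with a distance of 10 kb (S100P, S100A4, S100A10, S100A13 and S100A16) or with a score of at least 100 (S100A10, S100A11, S100A13, S100A14 and S100A16). Distances of 100 kb or from the transcription starts gave 8. The count of 0 members past 1.5-fold downward did not move under any alternative run. S100A8 was at -0.74 with a pseudocount of 0.1 and at -1.28 with none, both past 1.5-fold. It was not counted because those runs kept the minimum of 1 FPKM. Of 80 recomputed member changes 63 moved by less than 0.1 on the log2 scale, and 2 changed sign, S100A11 and S100A13 under the length subtraction, to 0.0041 and 0.015. The log2 change of S100P ranged from 1.49 to 2.80 and that of S100A10 from 0.17 to 0.38. The midpoint of the deposited interval in place of FPKM, and no pseudocount, were chosen after seeing the data. Levels of S100A8 and S100A14 are limited by depth, with 4 to 18 reads each.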
